A study of Saccharomyces cerevisiae with 4 samples.

Results

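The genes described here encode the proteins of the small subunit of the cytosolic ribosome of budding yeast, *Saccharomyces cerevisiae*, from RPS0A to RPS31. They were chosen by name, as the 56 systematic open reading frame names of this set, and not by any measured value. Of the 56 genes, 54 had a row among the 6212 rows of the values table and 48 had a ratio on all 4 arrays, where 4255 rows had one. The 56 genes make up 24 pairs of paralogous copies, A and B, and 8 genes present once.

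The study compared a trk1 trk2 double mutant with the wild type, both in the laboratory strain BY4741, which lacks working HIS3, LEU2, MET15 and URA3 genes. TRK1 and TRK2 encode the high-affinity potassium uptake system, and the comparison asks which transcripts differ without it while external potassium is high. Both strains grew at 28 °C in Translucent K-free medium, whose own potassium is about 15 µM, with 50 mM KCl added, and were collected in log phase at an absorbance of 0.6. Each of 4 dual-colour arrays held cDNA of both strains, with the mutant in the dye Cy5 on arrays 1 and 4 and in Cy3 on arrays 2 and 3. The labels do not give the number of independent mutant clones. The 2 independent experiments were taken as arrays 1 and 2 and arrays 3 and 4, each with a dye swap. The labels do not name the pairs, and the titles number the arrays as experiments 1 to 4. The pairing is thus an assumption, on which the intervals, standard errors and p-values below rest. Over all genes the correlation within these pairs, as limma estimates it for a random block, was −0.046. The values below are ratios on the log2 scale, with the mutant over the wild type, and the number of arrays limits the precision. The deleted TRK1 read −6.13 on array 1 and −4.60 on array 4 and was empty on arrays 2 and 3, and TRK2 read −4.23 on array 4 alone. On arrays 2 and 3 no deleted gene was listed, and their orientation rests on positive correlations with the other arrays.

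The small subunit binds mRNA, scans it for the start codon and holds the decoding centre in which tRNA anticodons meet codons. It is divided into a head and a body joined by a neck, and its proteins are placed on these parts below as the structures of the ribosome show them. In yeast, ribosomal protein genes are among the most strongly transcribed of all genes, they are controlled together through the factors Rap1, Fhl1, Ifh1 and Sfp1 and the kinases of the TOR and protein kinase A pathways, and their mRNA level follows the growth rate. Most of the proteins are made from duplicated genes whose copies encode the same or nearly the same protein.

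No gene of the small subunit passed the test between the strains. With the experiments as replicates (limma, n = 2 experiments, Benjamini-Hochberg over 4255 genes), 0 of 48 genes were higher and 0 were lower at an adjusted p of 0.05, beside 1.62% of all genes called higher and 1.74% called lower, or 3.36% in either direction. At an unadjusted p of 0.05 in the same limma fit the count was also 0 of 48, beside 20.2% of all genes. The mean ratios ran from −0.33 for RPS7B to 0.36 for RPS14B, with a median of 0.06 over the 48 genes and −0.04 over all genes tested. The adjusted p-values ran from 0.330 to 0.984. Of the 48 means 29 were positive, beside 44.8% of all genes, and 40 lay within 0.2 of 0, beside 1968 of all 4255. With each array centred on its own median 35 were positive, beside 2193 of all 4255. The sign of the median rested on single arrays: it was −0.12 without array 4, with 11 of 48 genes positive, and 0.21 without array 3, with 43 positive. The means of the 48 genes had an SD of 0.155 over genes, against 0.440 over all genes.

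How large a change these data leave room for is given by the intervals. The limma 95% intervals had a median half-width of 0.41 on the log2 scale and together spanned −0.79 to 0.81. A 2-fold change in either direction lay outside the interval of each of the 48 genes, before any correction for the number of genes. These intervals rest on the assumed pairing of the arrays and are given for that pairing alone. A 1.5-fold change lay inside the interval of 17 genes, upward for 11 of them and downward for 6. The smallest change that passed the test in any of the 4255 genes was 0.86 on the log2 scale, so a shift of the size seen here could not have been called in a single gene.

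**Figure D1:**
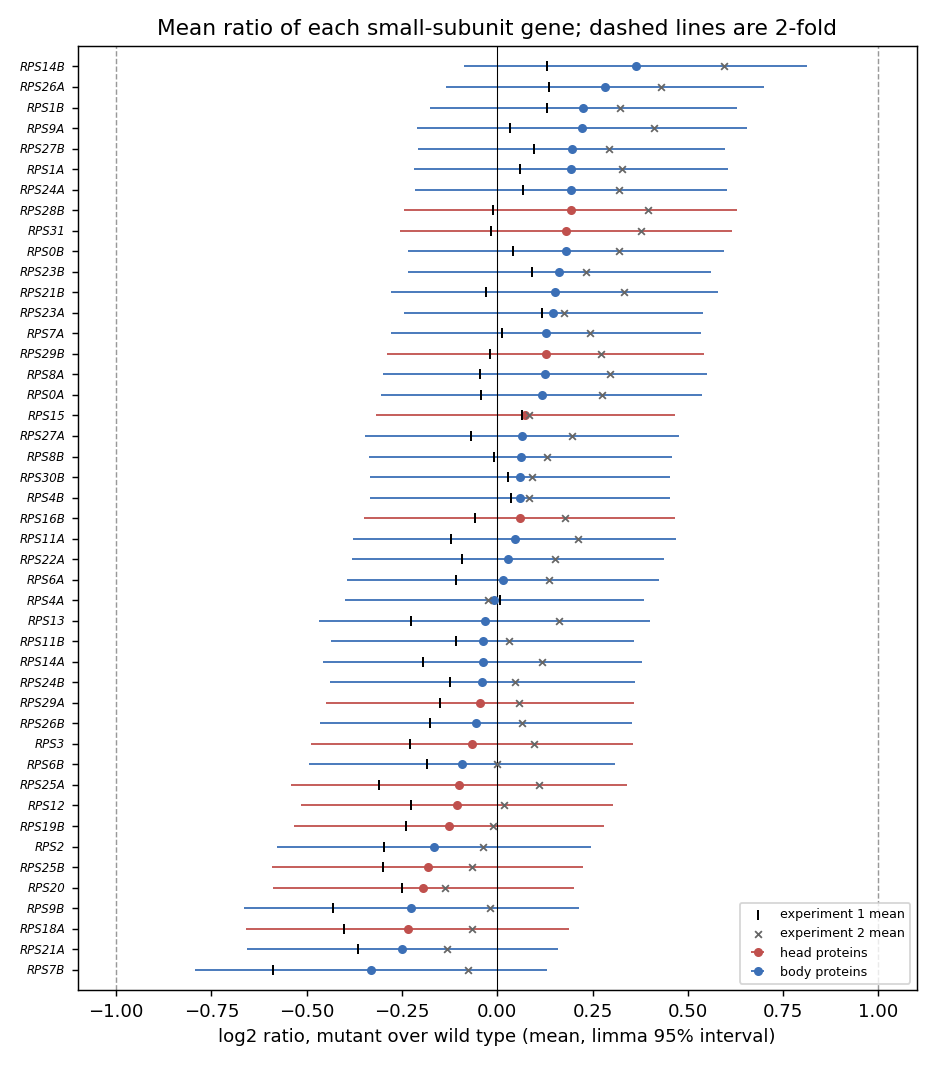
Mean log2 ratio of mutant over wild type for 45 of the 48 small-subunit genes with a value on all 4 arrays, ordered by the mean, with limma 95% intervals (n = 2 experiments); ticks and crosses are the means of experiments 1 and 2, and colours give head and body proteins. The means run from −0.33 (RPS7B) to 0.36 (RPS14B), and no interval reaches the dashed lines at a 2-fold change.

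The level of the whole set differed between the arrays. On array 4 all 48 genes were above 0, from 0.11 to 0.96 with a median of 0.57, beside 53.5% of all genes and a median of 0.04. On array 1, the other array with the mutant in Cy5, 30 of the 48 were above 0, with a range from −0.48 to 0.38 and a median of 0.13, beside 48.2% of all genes. On array 2 the genes ran from −0.69 to 0.15 with a median of −0.23, and 43 of 48 were negative, beside 58.2% of all genes. On array 3 they ran from −0.67 to 0.64 with a median of −0.20, and 39 of 48 were negative, beside 57.8% of all genes. Array 4 was the highest of the 4 in 42 of the 48 genes, beside 41.1% of all genes, and RPS4A, RPS4B, RPS8A, RPS15 and RPS31 were among the exceptions. Of these, RPS4A, which had the lowest value on array 4, RPS8A and RPS31 stood there at a ratio shared with abundant mRNAs, described below. Among the 42 genes away from such ratios on every array, array 4 was highest in 40. RPS9A alone had the same sign on all 4 arrays, 1 gene of 48 beside 38.6% of all genes. Its value on array 1 was only 0.001, and its value on array 2 was at such a shared ratio.

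**Figure D2:**
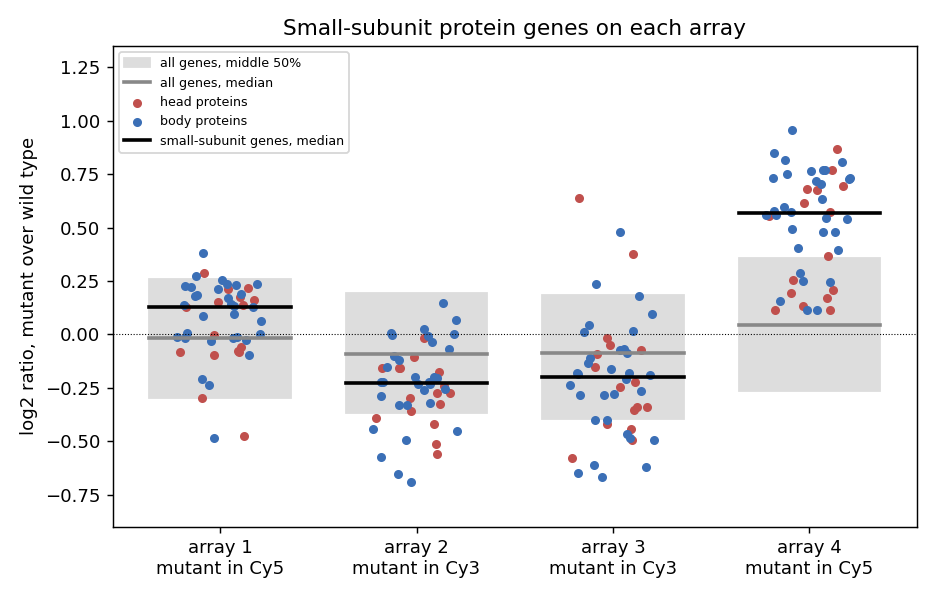
Log2 ratios of mutant over wild type of the 48 small-subunit genes on each array (points, coloured by head and body) with their median (black line), over the middle 50% and the median of all 4255 genes (grey). The genes lie above 0 on array 4, with a median of 0.57, and mostly below 0 on arrays 2 and 3, with medians of −0.23 and −0.20.

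The arrays divided by the dye that carried the mutant cDNA. In 40 of the 48 genes both arrays with the mutant in Cy5 read higher than both with it in Cy3, beside 30.8% of all genes. In 0 of the 48 both read lower, beside 454 of all 4255 genes. In 19 of the 48 the first pair was above 0 and the second below 0, beside 6.13% of all genes, and in 37 array 4 was highest and array 1 next, beside 21% of all genes. The mean ratio with the mutant in Cy5 minus that with the mutant in Cy3 had a median of 0.53, against 0.12 over all genes, and was positive in 47 of 48 genes, beside 62.4% of all genes. RPS31, at −0.12, was the exception, and RPS2 had the highest difference, at 0.89. The ratios of RPS31 on arrays 1, 3 and 4 were ones shared with abundant mRNAs, as described below. Fitted as a dye term over the 4 arrays in limma, this difference passed in 0 of 48 genes and in 0% of all genes (smallest adjusted p = 0.732), while 8 of the 48 and 195 of all 4255 genes had an unadjusted p under 0.05.

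Each experiment holds both dye orientations, so the difference can be given by experiment, as another view of the same values. Array 1 exceeded array 2 in 44 of the 48 genes, by a median of 0.30, beside 61.1% of all genes. Array 4 exceeded array 3 in 45 of the 48, by a median of 0.79, beside 62.5% of all genes. The experiments also differed. The mean of arrays 3 and 4 was above that of arrays 1 and 2 in 47 of 48 genes, beside 2209 of all 4255 genes. The median of this difference was 0.25, against 0.02 over all genes. The part that dye, labelling or the cultures played in these differences was not tested. In the mean of an experiment a dye difference that adds to the log ratio cancels, whereas in a value from a single array it does not.

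**Figure D3:**
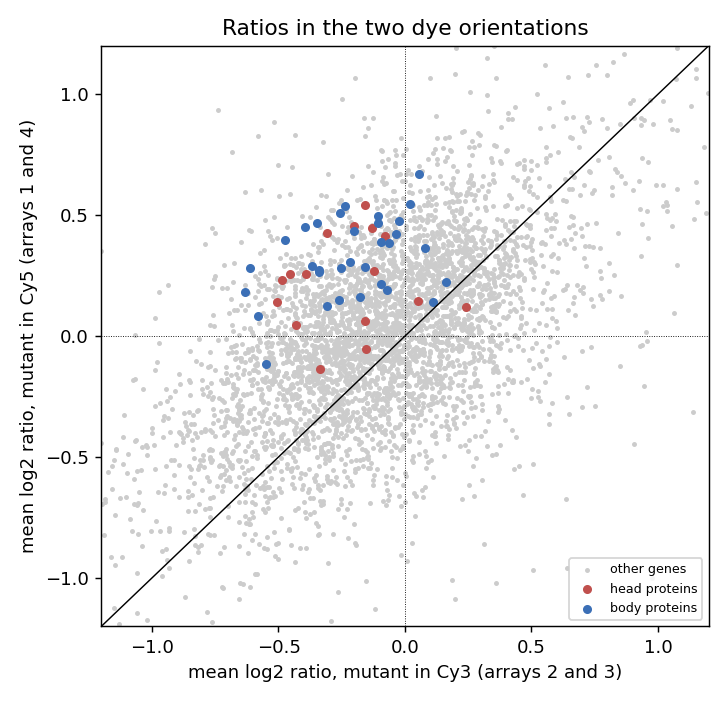
Mean log2 ratio on the arrays with the mutant in Cy5 (vertical) against that on the arrays with the mutant in Cy3 (horizontal) for the small-subunit genes (coloured) and all other genes with 4 values (grey), with the line of equal ratios; axes stop at 1.2 in both directions. Of 48 small-subunit genes 47 lie above the line, with a median distance of 0.53 in the vertical direction.

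Among the proteins of the head, 22 genes were listed and 16 had 4 values. Their mean ratios had a median of 0.01 and ran from −0.23 for RPS18A to 0.19 for RPS28B, with 8 of 16 positive. RPS3 (YNL178W), which lines the entry of the mRNA channel, read −0.10, −0.36, −0.42 and 0.62 on arrays 1 to 4, a mean of −0.07 ± 0.17 (limma SE, n = 2 experiments). It was thus high on array 4 and low on the rest. RPS15 (YOL040C), which is needed to export the pre-ribosomal particle from the nucleus, read 0.285, −0.16, −0.09 and 0.26, with a mean of 0.07 ± 0.16, so that its arrays with the mutant in Cy5 lay above the others.

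RPS20 (YHL015W), a head protein beside the signalling scaffold Asc1, was among the 6 lowest. It read −0.08, −0.42, −0.44 and 0.17 on arrays 1 to 4, a mean of −0.19 ± 0.16. RPS12 (YOR369C), on the beak of the head, read −0.30, −0.16, −0.16 and 0.19, with a mean of −0.10 ± 0.17. Both were above 0 on array 4 alone. RPS18A (YDR450W), whose protein touches the large subunit in a bridge, read −0.48, −0.33, −0.34 and 0.21, with a mean of −0.23 ± 0.18. RPS25B (YLR333C), one of the genes for a head protein that some viral RNAs need for initiation, read −0.09, −0.52, −0.50 and 0.37, with a mean of −0.18 ± 0.17. Both genes were above 0 on array 4 alone, and neither passed the test (adjusted p = 0.489 and 0.575 in limma).

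RPS31 (YLR167W) makes a fusion of ubiquitin with the ribosomal protein, which is cut apart after synthesis. It read 0.13, −0.16, 0.64 and 0.12 on arrays 1 to 4, a mean of 0.18 ± 0.18, and it was highest on array 3. Its ratios on arrays 1, 3 and 4 coincide with values shared by other abundant mRNAs. The 9 genes TDH1, TDH2, TDH3, ENO1, ENO2, PDC1, TEF1, TEF2 and CCW12, which encode glycolytic enzymes, elongation factor and a wall protein, read within 0.003 of 0.128, 0.065, 0.639 and 0.114 on arrays 1 to 4. RPS31 stood that close to them on these arrays. RPS4A and RPS8A did so on array 4, where 69 rows of the table lay that close. RPS9A did so on array 2, and RPS18B and RPS30B did so on array 1. Spot intensities were not used here, so a spot at the limit of the scanner could not be told from one with that ratio. Without the 6 such genes among the 48, the difference between dye orientations had a median of 0.58 and the mean ratio one of 0.05.

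Among the proteins of the body, 34 genes were listed and 32 had 4 values. Their mean ratios had a median of 0.06 and ran from −0.33 to 0.36, with 21 of 32 positive. RPS2 (YGL123W), which lies at the mRNA entry and affects the accuracy of decoding, read −0.02, −0.58, −0.65 and 0.58 on arrays 1 to 4, a mean of −0.17 ± 0.17. Its ratio changed sign between arrays 3 and 4, taken as the same experiment. Most of the 48 genes did so, since 39 were negative on array 3 and all 48 were positive on array 4. RPS13 (YDR064W), a protein of the body that binds early in assembly, read −0.01, −0.44, −0.24 and 0.56, with a mean of −0.03 ± 0.18.

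The 6 highest means all belonged to genes of body proteins, which made up 32 of the 48 genes. The lowest of the 6 was RPS1A at 0.1935, beside 0.192 for the head gene RPS28B. RPS14B (YJL191W), one of the genes for a platform protein, read 0.38, −0.12, 0.23 and 0.96 on arrays 1 to 4, a mean of 0.36 ± 0.19 or 1.29-fold (limma adjusted p = 0.330). It was the highest of the 48 genes on arrays 1 and 4 but below 0 on array 2. RPS26A (YGL189C), for a protein at the mRNA exit, read 0.27, −0.001, 0.04 and 0.82, with a mean of 0.28 ± 0.17. RPS1A (YLR441C) and RPS1B (YML063W), for another protein of the mRNA exit side, had means of 0.19 ± 0.17 and 0.23 ± 0.17. Both were highest on array 4 but had opposite orders over arrays 1 to 3. RPS1A read −0.03, 0.15, 0.18 and 0.48 and RPS1B read 0.24, 0.02, −0.07 and 0.72. RPS27B (YHR021C), for a zinc-binding protein, read 0.23, −0.04, −0.18 and 0.77, a mean of 0.20 ± 0.17.

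RPS7B (YNL096C) had the lowest mean of all 48. It read −0.48, −0.69, −0.40 and 0.25 on arrays 1 to 4, a mean of −0.33 ± 0.19 or 0.795-fold (limma adjusted p = 0.382), and was the lowest of the 48 on arrays 1 and 2. RPS21A (YKR057W), for a small protein of the body, read −0.24, −0.50, −0.67 and 0.40, a mean of −0.25 ± 0.17. RPS9B (YBR189W), whose protein acts with Rps2 in decoding accuracy, read −0.21, −0.66, −0.61 and 0.57, a mean of −0.23 ± 0.18. These genes were below 0 on arrays 1, 2 and 3 and above 0 on array 4.

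Paralogous copies could be compared in 17 of the 24 pairs, those with 4 ratios for each copy. Such a difference is taken between spots of the same array, so a shift common to the genes of an array cancels. Copy A read higher than copy B in 8 pairs and lower in 9, and the median of copy A minus copy B was −0.01. The size of the difference had a median of 0.11 and ran from 0.01 to 0.46, under 0.1 in 8 pairs. Genes of different proteins differed by a median of 0.15 over the 1111 such pairs among the 48 genes. The SD of a copy within its pair, 0.170, was not below the SD of 0.155 over all 48 genes. In 8 of the 17 pairs the sign of the difference was the same on all 4 arrays, in 4 with copy A higher and in 4 with copy B higher. The 4 arrays come from 2 experiments and are not independent. An exact two-sided sign-flip permutation test cannot go below 0.5 over 2 experiments, nor below 0.125 if the 4 arrays are counted singly, so it could call no pair. Near-identical copies can hybridise to each other's spots, and probe sequences were not used here.

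The 4 pairs with the largest differences were RPS7, RPS9, RPS14 and RPS21, all of the body, as were most of the pairs compared. RPS7A minus RPS7B was 0.74, 0.46, 0.125 and 0.51 on arrays 1 to 4, a mean of 0.46 ± 0.25 (SD, n = 4 arrays), which came from RPS7A at 0.13 and RPS7B at −0.33. RPS7A (YOR096W) read 0.255, −0.23, −0.28 and 0.765, above 0 on the arrays with the mutant in Cy5 alone. RPS9A minus RPS9B was 0.21, 0.72, 0.705 and 0.16, a mean of 0.45 ± 0.31. This pair differed most on the arrays with the mutant in Cy3, on which RPS9A read 0.07 and 0.09. On array 2, which had the largest difference, RPS9A was at the ratio shared with abundant mRNAs. RPS9A (YPL081W) itself read 0.001, 0.07, 0.09 and 0.73, a mean of 0.22 ± 0.18 (limma SE, n = 2 experiments), so that array 4 stood apart.

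In the other two pairs copy B read higher. RPS14A minus RPS14B was −0.32, −0.33, −0.73 and −0.225, a mean of −0.40 ± 0.22 (SD, n = 4 arrays). RPS14A read 0.06, −0.45, −0.50 and 0.73. RPS21A minus RPS21B was −0.46, −0.21, −0.48 and −0.45, a mean of −0.40 ± 0.13, with RPS21B at 0.23, −0.29, −0.19 and 0.85. The spread over arrays was least for RPS26A minus RPS26B among the pairs past 0.3, at 0.37, 0.255, 0.31 and 0.42 with a mean of 0.34 ± 0.07. RPS26 was taken up after its values were seen. In yeast the splicing of RPS14B and of RPS9A transcripts is known to be inhibited by the protein they encode. Oligo(dT)-primed cDNA and these ratios do not separate spliced from unspliced RNA.

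At the other end, the copies of RPS23 and RPS1 differed by −0.02 and −0.03 in the mean. RPS23, a protein of the decoding centre, had differences of 0.06, −0.005, −0.06 and −0.06 on the arrays, with an SD of 0.05. RPS1, by contrast, had differences of −0.26, 0.12, 0.25 and −0.24, so its small mean hides array values of either sign. RPS8A minus RPS8B was −0.02, −0.05, 0.46 and −0.13, and RPS8A was at the shared ratio on array 4.

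**Figure D4:**
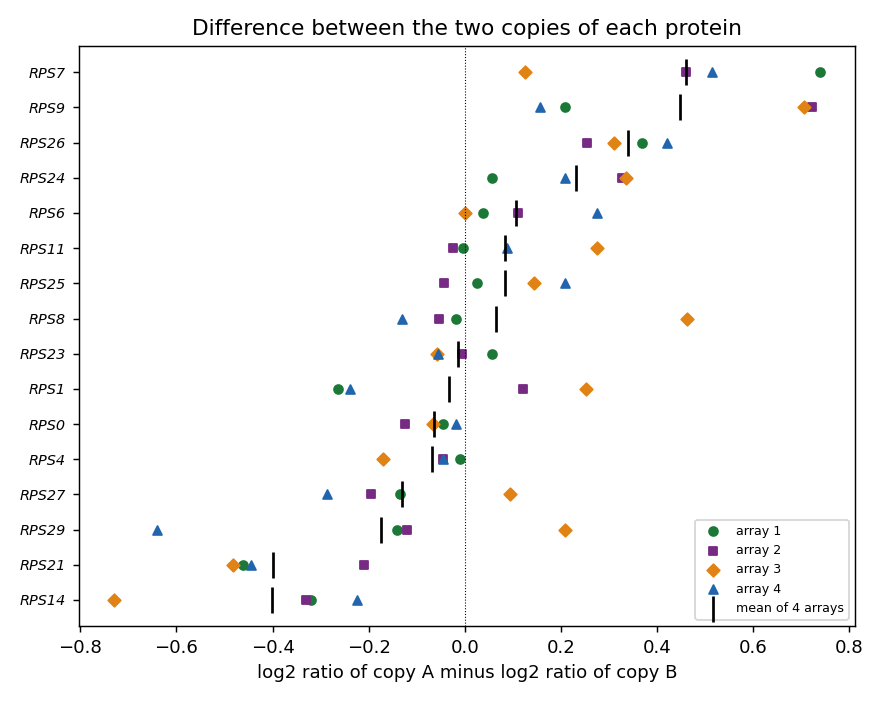
Log2 ratio of copy A minus that of copy B for 16 of the 17 protein pairs with 4 values per copy, on each array (symbols) and as the mean (bar). RPS7, RPS9, RPS26 and RPS24 lie to the right of 0 and RPS21, RPS14, RPS4 and RPS0 to the left on all 4 arrays.

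One pair of the genes lies side by side. RPS14B and RPS22A are neighbours on chromosome X in the RefSeq R64 gene order, with 0 protein-coding genes between them. RPS22A read 0.13, −0.32, −0.47 and 0.77 on arrays 1 to 4, with a mean of 0.03, and lay below RPS14B on each array, a difference that was not tested.

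The remaining genes could not be tested between the strains. RPS10A read 0.08 and −0.08 and RPS18B 0.13 and −0.08 on arrays 1 and 2, and both were empty on arrays 3 and 4. RPS28A read 0.07 on array 3 and 1.48 on array 4, the highest ratio of any of the genes on any array, and was empty on arrays 1 and 2. RPS28B, its paralog, read 0.22, −0.24, −0.07 and 0.87 on arrays 1 to 4. RPS22B had 1 value, −0.25 on array 3. RPS10B and RPS16A were empty on all 4 arrays, and RPS19A and RPS30A had no row and were not analysed here.

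The order of the 48 genes was in part shared between arrays. Over the genes, Spearman's rho was 0.60 between arrays 1 and 2, 0.64 between arrays 2 and 3 and 0.55 between arrays 1 and 3, against 0.70, 0.62 and 0.43 over all 4255 genes. With array 4 it was 0.38 for array 1, 0.25 for array 2 and −0.10 for array 3, the other array of its experiment, against 0.27, 0.20 and 0.37 over all genes. Among the 42 genes away from the shared ratios the value for arrays 3 and 4 was 0.13. These are correlations across genes of the same arrays, which are not independent, and they describe the data only.

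The other genes of the translation apparatus were read beside them. Of 81 genes of the large subunit 74 had 4 values, with 0 higher and 0 lower in limma beside 1.62% and 1.74% of all genes. They had a median of 0.01 in the mean and of 0.004, −0.26, −0.25 and 0.56 on arrays 1 to 4. The difference between dye orientations had a median of 0.56 there, close to the 0.53 of the small subunit. Both arrays with the mutant in Cy5 were above both others in 59 of 74 genes, beside 30.8% of all genes. ASC1, for the scaffold on the head of the small subunit, read 0.05, −0.27, −0.31 and 0.46, a mean of −0.02 ± 0.17 (limma SE, n = 2 experiments). STM1, for a protein that clamps idle ribosomes, read 0.25, 0.07, 0.09 and 0.84, a mean of 0.31 ± 0.17 (limma adjusted p = 0.369).

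Factors that assemble the small subunit had another order over the arrays. Of 30 such genes 26 had 4 values and 0 were called in either direction by limma, with 1 at an unadjusted p under 0.05. Their medians were −0.18, −0.06, 0.15 and 0.63 on arrays 1 to 4. The arrays of experiment 2 were both above those of experiment 1 in 16 of the 26, where the small-subunit genes had 4 of 48 and all genes 20.8%. In only 3 of the 26 were both arrays with the mutant in Cy5 above both others, beside 30.8% of all genes. Translation initiation factors (20 of 21 genes with 4 values) had medians of 0.01, −0.03, 0.09 and 0.45. Regulators of ribosomal protein genes (15 of 18) had a median of −0.09 in the mean, with 0 called. At an unadjusted p under 0.05 in limma there were 6 of the 15 regulators, 2 of the 20 initiation factors and 7 of the 29 genes of the mitochondrial small subunit, beside 20.2% of all genes. Genes of the mitochondrial small subunit (29 of 32) had a median of −0.17 in the mean and of −0.27 on array 4, where the cytosolic genes were all positive. No gene of these lists passed the test, and the differences between the lists were not tested.

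**Figure D5:**
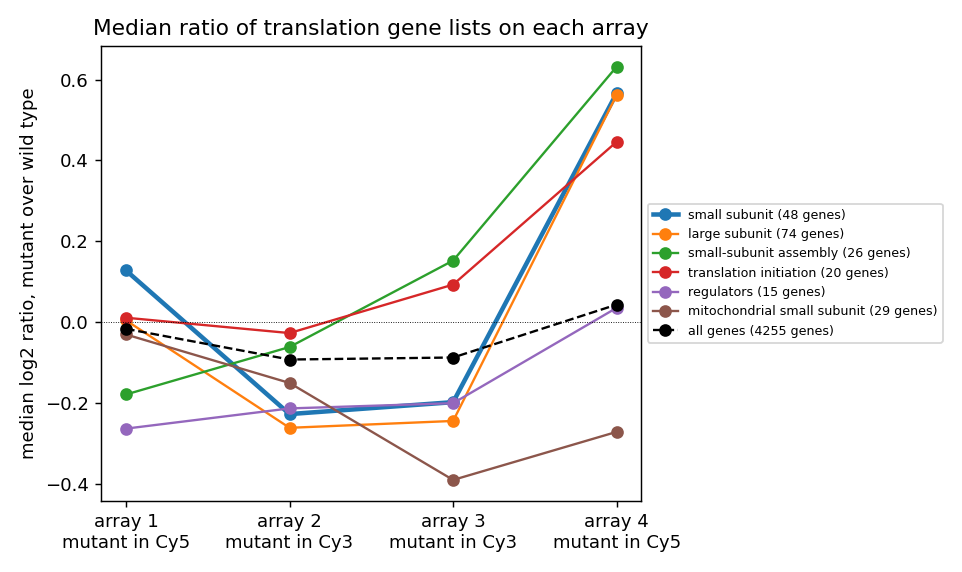
Median log2 ratio of mutant over wild type on each array for the small-subunit genes and other lists of translation genes (numbers of genes in the legend) and for all genes (dashed). The small and large subunit follow each other from arrays 2 to 4, where both lie near 0.56, while the mitochondrial small subunit lies at −0.27 on array 4.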

How the data were processed

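The deposited values are log ratios of dual-colour arrays, 1 column per array, processed by the authors. Per the labels' protocols, 8 µg of total RNA was copied from oligo(dT), and spots under 120 µm or under 100 fluorescence units were not considered by the authors, which left empty cells. The base of the logarithm was read as log2 in these deposited values; what was done for normalization and centring, and with which scanner, is not given in the sources used here. Direction was taken from the deleted TRK1. Array medians were −0.02, −0.09, −0.10 and 0.01. Array pairs follow the wording of the description field.

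Arrays of an experiment were averaged, and genes with 4 values were fitted with limma 3.58.1 in R 4.3.3 (lmFit, eBayes, prior of 5.33 degrees of freedom, threshold 0.05). On simulated data the procedure called 95.1% of 4-fold changes, 27% of 2-fold changes and 3.55% of 1.5-fold changes. It called 0.26% of the unchanged genes. If the experiments were not separate cultures, p-values measure technical spread only. Symbols came from a RefSeq R64 gene table, which matched all 56 genes. Members, lists and tests were chosen with earlier results of these data known. Values on each array are given for 7 of the 8 genes present once, the 6 highest and 6 lowest means, and the 4 pairs with the largest difference; others were added after their values were seen. The 9 abundant mRNAs were also chosen after seeing the data. Alternatives changed the pairing, averaging, dye term, centring, scaling, shrinkage, filters, tied ratios and the arrays used. The single results of 3 genes are not reported here, although counts and medians include them. No sequence is shown.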

Additional observations from a re-analysis of the deposited data

Results flagged for a closer look

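A total of 19 of the 48 genes were above 0 on both arrays with the mutant in Cy5 and below 0 on both arrays with the mutant in Cy3, beside 6.13% of all genes. They were singled out because every array of one dye orientation read one way and every array of the other the opposite way. For the single genes the difference was tested by the dye term of the limma fit, which no gene passed (smallest adjusted p = 0.732).

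RPS9A was singled out because array 4 lay far from the other arrays, with a gap of 0.872 of the whole range of its 4 arrays. It was 1 of 48 genes examined, or 2.08%, and chance alone gives such a gap in about 5 of 100 groups.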

How the results depend on the processing

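In 15 alternatives with a test, 0 small-subunit genes were called higher and 0 lower, among them the added one that emptied the ratios shared with abundant mRNAs; the smallest adjusted p in limma was 0.0849, for RPS14B with arrays 1 and 3 paired against 2 and 4. Over all genes the counts moved: 255 higher and 473 lower with that pairing, 163 and 250 with 4 separate arrays, 185 and 292 with a random block, 130 and 179 with at least 2 values, 40 and 39 with at least 1 array of each experiment, and 28 and 23 with shared ratios emptied. They were also 106 higher with centred arrays, 142 lower with a dye term, 49 lower with the most frequent ratios emptied, and 0 to 96 higher and 0 to 123 lower with 1 array left out. The cause was not tested.

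The median of the small-subunit genes ran from −0.12 without array 4 to 0.21 without array 3, with 11 and 43 of 48 positive. Genes of one sign on all arrays numbered 4 after centring or scaling, 0 with shared ratios emptied and 2 to 18 with 1 array left out. Centring turned RPS13 to 0.019 (0.0053 when scaled) and RPS14A to 0.013. Of the 21 reported genes chosen as present once, highest, lowest or in the 4 named pairs, 8 kept their sign under every alternative run. With an array or an experiment left out, the ratio of RPS2 ran from −0.47 to 0.14, RPS3 from −0.33 to 0.19, RPS12 from −0.23 to 0.0185, RPS13 from −0.23 to 0.17, RPS15 from −0.0367 to 0.18, RPS31 from −0.0155 to 0.38, RPS27B from −0.0415 to 0.43, RPS21A from −0.52 to 0.0185, RPS9B from −0.52 to 0.0707, RPS25B from −0.40 to 0.0325, RPS7A from −0.13 to 0.39, RPS14A from −0.35 to 0.27 and RPS21B from −0.11 to 0.41. Those that kept it were RPS20 from −0.35 to −0.041, RPS14B from 0.13 to 0.59, RPS26A from 0.0895 to 0.48, RPS1B from 0.028 to 0.42, RPS9A from 0.0335 to 0.41, RPS1A from 0.059 to 0.33, RPS7B from −0.59 to −0.076 and RPS18A from −0.40 to −0.067. The median size of copy A minus copy B ran from 0.085 to 0.18 and the 4 named pairs kept their direction.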
